A study of Homo sapiens with 6 samples.

Results

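In order to describe which membrane carriers kidney tubule cells in culture transcribe, and whether their transcripts differ when ANXA2 is targeted, the solute carrier genes were drawn from RNA-seq counts of HK-2, a human proximal tubule cell line made permanent with genes of a papillomavirus and widely used as a kidney model. The members were chosen by their symbol and their measured level: they are the protein-coding genes whose symbol is SLC followed by a digit and whose mean raw count over 6 libraries was at least 300. They numbered 141 of the 307 such genes in a table of 26899 genes, and the other 166 lay below that mean. The mean count chose the members, so their levels are given below as a description, whereas the difference between the groups played no part in the choice. A symbol is not a function: 136 members were counted as carriers by their family, among them the heavy chain SLC3A2 and orphans of unknown substrate. The other 5 are named after a carrier without being one (SLC9A3R1, SLC9A3R2, SLC2A4RG, SLC4A1AP and SLC7A6OS).

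Polyadenylated RNA was sequenced in 6 libraries, of which 3 bear a control label and 3 a label of ANXA2 knockdown, all from HK-2 cells grown with 10% fetal bovine serum and given plasmid DNA with a lipid reagent. The titles called the control cells WT and the descriptions called them shCtrl, so the labels do not settle whether the control cells carried a control hairpin. No label says whether the 3 libraries of a group came from separate cultures, and p-values therefore measure the spread between these libraries only, which may be technical. The cells are 1 line, transfected as a population.

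Solute carriers move ions, sugars, amino acids, vitamins and metabolites across membranes without spending ATP directly: some exchange one solute for another, some couple a solute to the sodium or proton gradient, and some let it run down its own gradient. In the proximal tubule of the kidney they are known for recovering filtered glucose, amino acids, phosphate and bicarbonate at the brush border, and for handing these on to the blood at the basolateral side. Every cell also needs carriers for its own upkeep, chiefly those of the inner mitochondrial membrane (the SLC25 family), of the Golgi and endoplasmic reticulum (the SLC35 family), and of zinc (the SLC39 and SLC30 families).

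The libraries held 24231267 to 34561675 counted reads. The targeted gene, ANXA2, stood at 1658, 1461 and 1675 TMM-scaled CPM (counts scaled to a library's depth over the tested genes and to its composition) in control replicates 1, 2 and 3, and at 1538, 1561 and 1519 CPM in knockdown replicates 1, 2 and 3. These values overlapped, with an edgeR log2 fold change of -0.05 (SE 0.075, adjusted p = 0.848, exact two-sided permutation p = 0.4). No fall of the targeted transcript was therefore measured, and every difference below is one between libraries labelled knockdown and libraries labelled control. Of 9 proximal tubule markers, PAX8, GGT1 and MME were above 1 CPM on average, with PAX8 between 343 and 677 CPM over the 6 libraries, while LRP2 (at most 0.0321 CPM) and AQP1 (at most 0.117 CPM) were at or near 0. Markers of other cell types were low: 6 leukocyte markers summed to 1.16 to 2.89 CPM in the control libraries and 2.22 to 4.22 CPM in the knockdown libraries, mostly CD14, and 4 fibroblast markers summed to 29.5 to 38.0 and 30.6 to 31.2 CPM, mostly LUM.

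Upstream sequences were examined for letters that the choice of members did not use. Windows of 250 bases before a RefSeq start were found for 117 of the 141 members (186 windows, GRCh38.p14). On either strand, the GC box letters GGGCGG were present in 66.1% of member windows, 63.1% of the windows of all tested genes and 42.6% of all windows. The letters CCAAT were present in 32.8% of member windows, 32.8% of windows of tested genes and 32.0% of all. The TATA box letters TATAAA were rarer among members (4.3%) than among tested genes (5.86%) or all windows (10.7%). They were found for 7 members, including the 2 carriers highest by FPKM (a level per length, described below), SLC25A5 and SLC2A1. The E-box CACGTG was present in 12.9%, 8.36% and 6.34% of the same 3 sets, and the AP-1 letters TGACTCA in 4.3%, 3.12% and 4.2%. An element of the kind ATF4 binds, TTGCATCA, was found for 1 member, SLC1A5 (0.538% of member windows, 0.45% of tested and 0.772% of all). These are matches of letters, not measured binding. Of the motifs, the GC box, CCAAT and the TATA box are shown in capitals below. The stretches lie upstream of the 2 carriers highest by FPKM, of the glutamine carrier highest by FPKM and of the carrier with the lowest fold change. All are RefSeq sequence on GRCh38.p14, written along the strand of the gene, and bases in annotated exons were left out except that the last base of the SLC25A5 stretch is also the first base of a GENCODE transcript.
SLC25A5, chrX:119468393-119468422, plus strand: ccgctccagctccggctccccctaTATAAA
SLC2A1, chr1:42958894-42959018, minus strand: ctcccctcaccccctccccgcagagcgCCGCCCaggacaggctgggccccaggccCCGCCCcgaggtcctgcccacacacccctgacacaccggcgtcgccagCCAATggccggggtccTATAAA
SLC1A5, chr19:46788595-46788744, minus strand: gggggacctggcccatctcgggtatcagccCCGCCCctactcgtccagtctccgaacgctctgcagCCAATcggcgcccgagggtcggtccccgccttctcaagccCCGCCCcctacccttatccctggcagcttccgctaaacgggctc
SLC38A2, chr12:46372774-46372923, minus strand: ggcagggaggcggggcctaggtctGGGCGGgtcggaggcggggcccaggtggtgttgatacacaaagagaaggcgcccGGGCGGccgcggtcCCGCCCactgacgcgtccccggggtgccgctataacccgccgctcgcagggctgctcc

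Levels of different genes were compared per length, as deposited FPKM (fragment counts divided by a length for the gene and by depth). The lengths that the depositors used were not checked, and every rank, share and ratio of genes by FPKM depends on them. By reads the order differs: SLC25A3 had 143144 reads in all and SLC25A5 had 108952, but their mean FPKM was 107 and 440. The 141 members together took 1.0% to 1.07% of the reads of a library and 0.652% to 0.706% of its summed FPKM. In bulk RNA, fewer cells that express a gene and less RNA per cell cannot be told apart. Their mean FPKM over the 6 libraries ran from 0.983 for SLC35E3 to 440 for SLC25A5, with a median of 7.73. Only 6 members reached 100 FPKM (SLC25A5, SLC2A1, SLC39A1, SLC25A3, SLC43A3 and the non-carrier SLC2A4RG), 13 reached 50 FPKM, 79 lay under 10 FPKM and 6 under 2 FPKM. The 10 most abundant members held 46.9% of the summed member FPKM, and SLC25A5 alone held 14.9%. The limit on raw counts favours long transcripts: 26 of the genes below it had an FPKM at or above that of the lowest member, though 0 reached the member median. Just inside the limit lay SLC12A5, SLC38A9 and SLC7A7 with mean counts of 305.8, 317.7 and 336.5, and just outside lay SLC38A6, SLC35E4 and SLC31A2 with 296.7, 296.7 and 293.0.

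**Figure D1:**
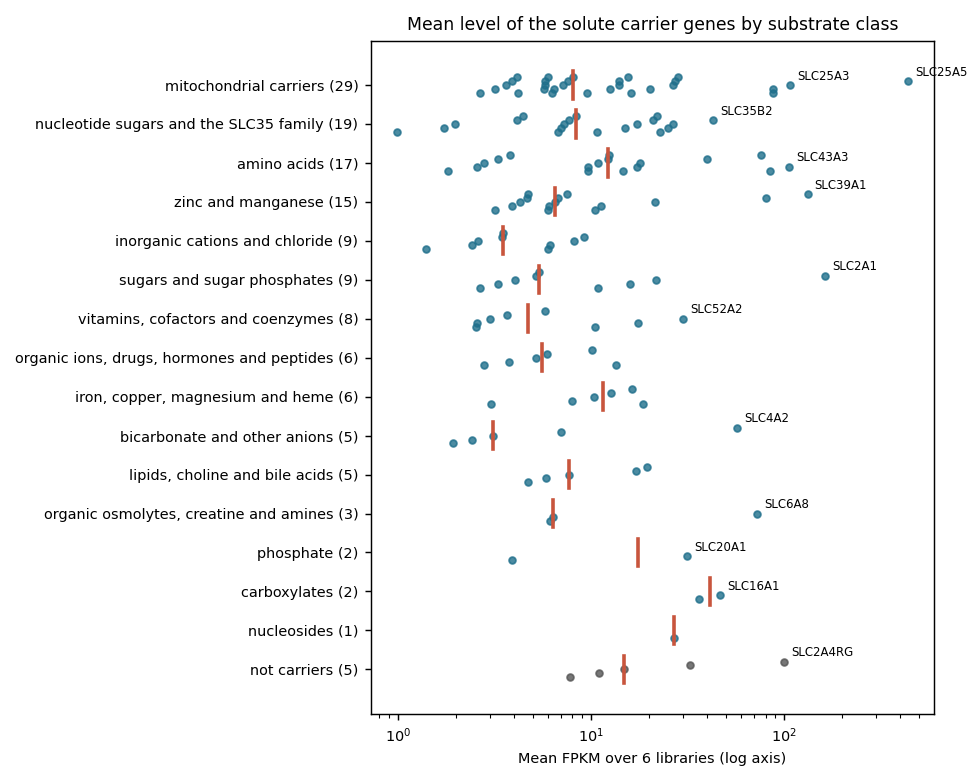
Mean deposited FPKM over the 6 libraries (log axis) for the 141 members, one point per gene, in rows by substrate class with the number of members in parentheses, and a red bar at each class median. The mitochondrial row holds the highest point, SLC25A5 at 440 FPKM, and SLC2A1 at 162 FPKM stands far above the other sugar carriers.

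In order to ask whether carrier transcripts differed between the groups, the libraries labelled knockdown were set against those labelled control in 1 edgeR quasi-likelihood fit over 15299 tested genes, in which all 141 members were tested. No member passed an adjusted p of 0.05 (Benjamini-Hochberg over all tested genes, smallest adjusted p = 0.599), where the background was 0.0% of tested genes. DESeq2 also called 0 members, against 0.207% of the genes it tested. Without its low-count filter edgeR called 2 of the 141 members, SLC38A2 and SLC39A8, and 165 of all 26899 genes (0.613%). That share counts genes of low count, which the members by their choice are not, so it is no like background for them. At an unadjusted p under 0.05 there were 14 members (9.93%) against 8.18% of tested genes. Of these, 3 members were higher in the libraries labelled knockdown (2.13%, background 3.86%) and 11 were lower (7.8%, background 4.32%). The 3 control and 3 knockdown libraries did not overlap for 26 members (18.4%, background 15.6%), 14 of them higher (9.93%, background 7.94%) and 12 lower (8.51%, background 7.7%).

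The sizes of the differences were small. Estimates lay between -0.81 (SLC38A2) and 0.54 (SLC12A5) on the log2 scale, with a median of -0.0047 beside -0.0065 for all tested genes. They were above 0 for 70 members and below 0 for 71 (50.4%, background 51.0%). The 95% interval of the fold change lay within 2-fold either way for 139 members (98.6%, background 73.7%) and within 1.5-fold for 94 (66.7%, background 48.1%). Members were more abundant than most tested genes by their choice, and their median SE was 0.147 beside 0.181 for all tested genes. A difference of more than 2-fold either way was thus outside the interval for all members except SLC38A2 and SLC12A5.

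**Figure D2:**
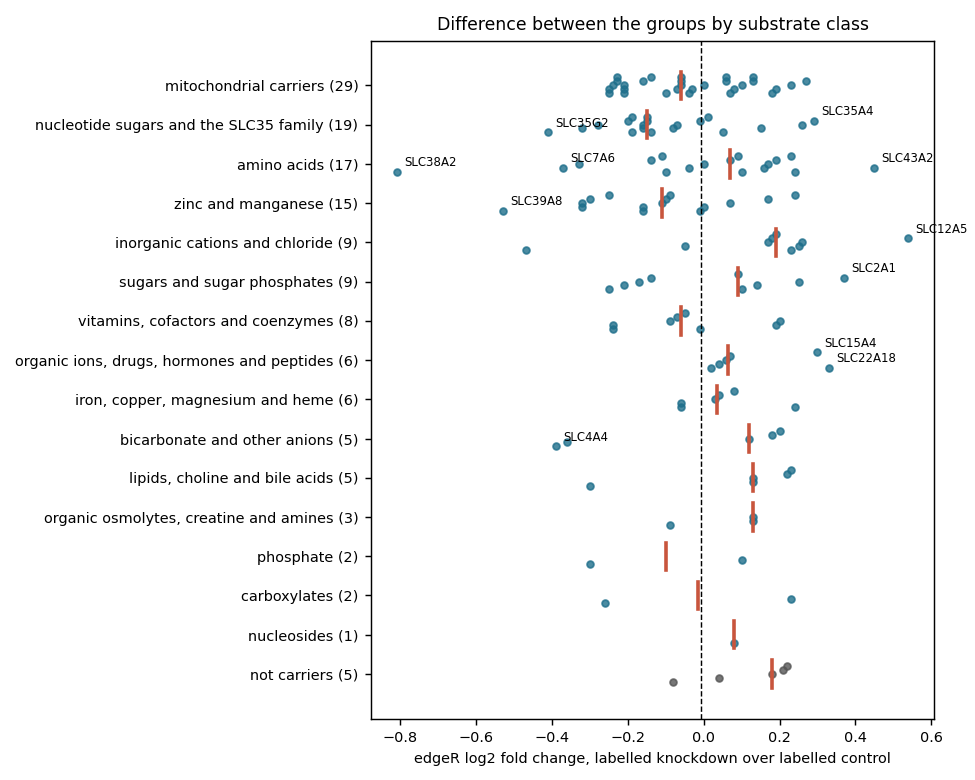
edgeR log2 fold change of each member, libraries labelled knockdown over libraries labelled control, in rows by substrate class with red bars at class medians and a dashed line at the median of all tested genes. Points lie between -0.81 (SLC38A2) and 0.54 (SLC12A5), and 0 members passed the adjusted threshold.

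The mitochondrial carriers, which exchange metabolites, nucleotides and phosphate across the inner membrane, were the largest class with 29 members, and held 31.2% to 34.6% of the summed member FPKM in a library. Their summed FPKM was 1008 ± 12.3 in the control libraries and 965 ± 57.7 in the knockdown libraries (mean ± SD, n = 3 each). SLC25A5 (ENSG00000005022.5, chromosome X, 119468422 to 119471396, plus strand), the ADP/ATP exchanger ANT2 typical of growing cells, stood at 622, 652 and 608 CPM in control replicates 1, 2 and 3. In the knockdown libraries it stood at 547, 528 and 605 CPM. All 3 knockdown values were below the lowest control value, with knockdown replicate 3 only just so, and the log2 fold change was -0.16 (SE 0.0828, unadjusted p = 0.0782, adjusted p = 0.625). SLC25A3, the mitochondrial phosphate carrier that supplies ATP synthase, stood at 793, 732 and 758 CPM in the control libraries and at 783, 731 and 880 CPM in the knockdown libraries, which overlapped (log2 fold change 0.07, SE 0.0882, adjusted p = 0.837).

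SLC25A4 encodes ANT1, the ADP/ATP exchanger typical of heart and muscle, and is a close paralog of SLC25A5, so that the counting could split reads between them. It was scarce, at a mean of 5.77 FPKM beside 440 for SLC25A5. The gap was smaller without division by length, at a mean of 27.7 CPM in the control libraries beside 627 CPM for SLC25A5. The size of their ratio in FPKM therefore depends on the deposited lengths, which were not checked. The ratio of SLC25A5 to SLC25A4 in FPKM was 79.2, 77.0 and 80.3 in control replicates 1, 2 and 3, and 75.7, 71.2 and 73.8 in knockdown replicates 1, 2 and 3. The groups did not overlap (78.8 ± 1.68 beside 73.6 ± 2.26), with a two-sided p of 0.1 by exact permutation, the smallest that 3 against 3 libraries can give. SLC25A6, the third copy that is expressed in many tissues, was not analysed here. Across the class, 12 estimates were above 0 and 17 below, with a median of -0.06, which shrank to -0.0048 if control replicate 2 was omitted and to -0.0272 if knockdown replicate 1 was omitted. At an unadjusted p under 0.05 there was 1 mitochondrial member (3.45%), beside 8.18% of tested genes. It was SLC25A13, an aspartate/glutamate exchanger of the malate-aspartate shuttle. Its CPM was 98.6, 100 and 96.0 in the control libraries and 80.2, 88.9 and 86.0 in the knockdown libraries (log2 fold change -0.21, SE 0.0909, unadjusted p = 0.0474, adjusted p = 0.608). The citrate carrier SLC25A1 (87.7 FPKM) and SLC25A39, which is known for bringing glutathione into mitochondria (87.9 FPKM), overlapped between the groups.

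Amino acid carriers numbered 17 and held 12.2% to 15.5% of the summed member FPKM. Both figures include SLC43A3, a purine nucleobase carrier placed here by its family. Its FPKM ran from 56.19 in control replicate 1 to 150.28 in knockdown replicate 2, so it weighs on the share and on its spread. SLC1A5 (ASCT2, a sodium-dependent exchanger of glutamine and other neutral amino acids) had a mean of 83.9 FPKM, its CPM being 293, 280 and 283 in the control libraries and 316, 308 and 296 in the knockdown libraries. The groups did not overlap, by a narrow margin, and the log2 fold change was 0.10 (SE 0.0796, adjusted p = 0.72). SLC3A2 (CD98 heavy chain) brings light chains to the plasma membrane, and stood at 206, 217 and 178 CPM in the control and 223, 198 and 262 CPM in the knockdown libraries. Its main light chain, SLC7A5 (LAT1, an importer of large neutral amino acids), stood at 181, 210 and 176 CPM and at 188, 169 and 239 CPM in the same order. Both were highest in knockdown replicate 3, and both overlapped between the groups (log2 fold change 0.19, SE 0.124 for SLC3A2, and 0.07, SE 0.138 for SLC7A5). The ratio of SLC3A2 to SLC7A5 in FPKM was 1.83 ± 0.117 in the control and 1.99 ± 0.0864 in the knockdown libraries (n = 3 each, exact two-sided permutation p = 0.2).

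SLC7A11, the cystine/glutamate exchanger that pairs with the same heavy chain, was below the limit for members, at 5.12, 15.7 and 6.36 CPM in the control libraries and 6.27, 5.03 and 4.09 CPM in the knockdown libraries. Control replicate 2 stood apart from the other 5 libraries, and the log2 fold change was -0.83 (SE 0.394, adjusted p = 0.615). SLC43A3, placed here by its family but known as a purine nucleobase carrier, was the most abundant of the class at 106 FPKM and is described with the variable members below.

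The lowest fold change of any member was in this class. SLC38A2 (SNAT2, ENSG00000134294.13, chromosome 12, 46358188 to 46372773, minus strand), a sodium-coupled importer of small neutral amino acids whose transcript is induced when amino acids are short, stood at 77.9, 182 and 90.2 CPM in control replicates 1, 2 and 3. In the knockdown libraries it stood at 63.9, 73.6 and 62.3 CPM. The groups did not overlap, but control replicate 2 stood far above the other 2 control libraries. The log2 fold change was -0.81 (SE 0.276, 95% interval -1.43 to -0.19, unadjusted p = 0.0162, adjusted p = 0.599), and without control replicate 2 it was -0.33 (adjusted p = 0.92). In the edgeR fit without a low-count filter its adjusted p was 1.89e-07.

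SLC7A6, a heavy-chain partner that exchanges cationic for neutral amino acids, stood at 77.9, 109 and 92.6 CPM in the control and at 70.7, 73.0 and 73.1 CPM in the knockdown libraries. The 3 knockdown values lay close together below all control values (log2 fold change -0.37, SE 0.127, adjusted p = 0.599), and without control replicate 2 the estimate was -0.24. SLC1A4, an exchanger of alanine, serine and cysteine, stood at 60.6, 79.4 and 62.6 CPM beside 54.3, 57.6 and 48.8 CPM (log2 fold change -0.33, SE 0.13, unadjusted p = 0.0294, adjusted p = 0.605). SLC43A2 (LAT4, a facilitator of large neutral amino acids) went the other way, at 19.6, 16.5 and 24.4 CPM in the control and 30.1, 25.7 and 26.6 CPM in the knockdown libraries. Here the knockdown libraries were all above the control libraries, with control replicate 3 the nearest (log2 fold change 0.45, SE 0.16, unadjusted p = 0.0201, adjusted p = 0.599). Over the 17 members, 9 estimates were above 0 and 8 below, with a median of 0.07, which turned to -0.019 without knockdown replicate 3.

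**Figure D3:**
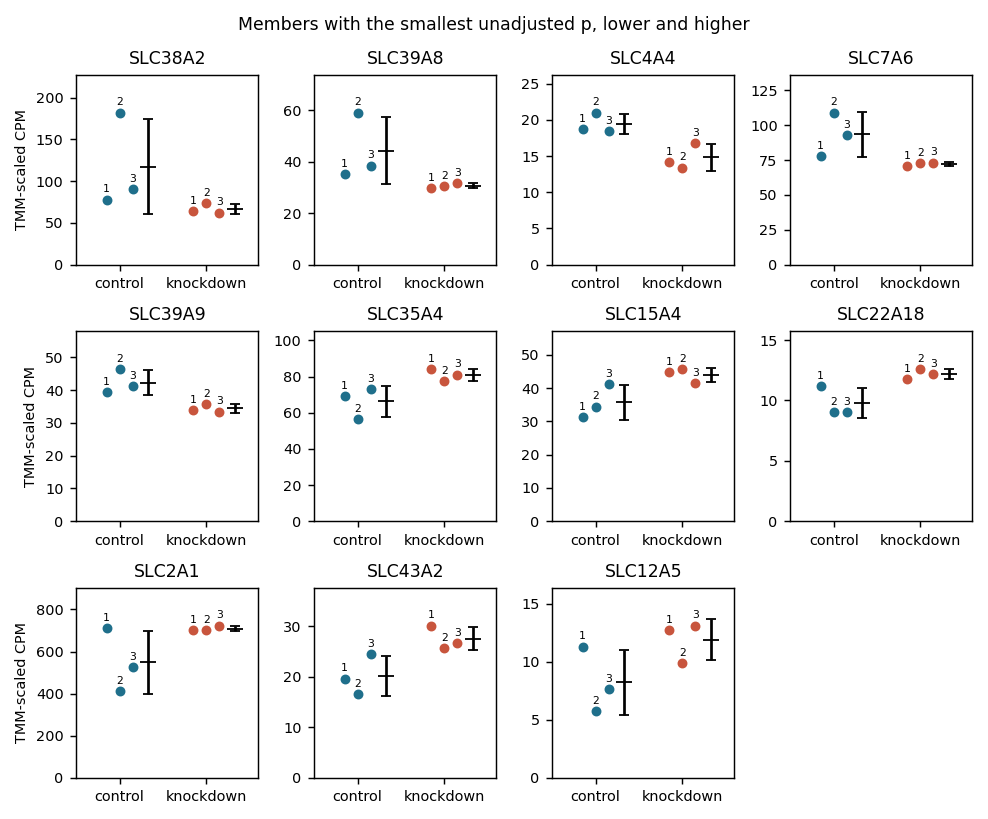
TMM-scaled CPM in each library, numbered by replicate, for 11 of the members with the smallest unadjusted p in either direction, with the mean and SD of 3 libraries beside each group (linear axes from 0). In SLC38A2, SLC39A8 and SLC7A6 control replicate 2 is the highest point, and in SLC2A1 control replicate 1 is level with the knockdown libraries.

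Sugar carriers numbered 9 and were led by SLC2A1 (GLUT1, ENSG00000117394.19, chromosome 1, 42925353 to 42958893, minus strand), the facilitated glucose carrier of dividing cells, at a mean of 162 FPKM. It stood at 710, 412 and 525 CPM in control replicates 1, 2 and 3, and at 702, 703 and 723 CPM in the knockdown libraries. The knockdown libraries agreed closely with each other, whereas control replicate 1 was level with them and the other 2 control libraries were below. The log2 fold change was 0.37 (SE 0.165, unadjusted p = 0.0515, adjusted p = 0.61), 0.60 without control replicate 1 and 0.20 without control replicate 2. SLC2A3 (GLUT3, a glucose carrier of high affinity) was scarcer at 10.8 FPKM, and the ratio of SLC2A1 to SLC2A3 was 14.1 ± 4.21 in the control and 16.4 ± 1.34 in the knockdown libraries (n = 3 each, exact two-sided permutation p = 0.5). SLC2A3 has a near-identical copy, SLC2A14, and its reads are uncertain for that reason. SLC2A6, a carrier of lysosomal membranes, had 21.6 FPKM and a log2 fold change of 0.14 (SE 0.175, adjusted p = 0.825). The summed FPKM of the class ran from 174 to 250 over the control libraries and from 247 to 258 over the knockdown libraries, and SLC2A1 made up most of it.

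The 2 members that carry lactate and pyruvate had like levels, of 46.6 and 36.0 FPKM. SLC16A1 (MCT1) stood at 157, 331 and 265 CPM in the control and 212, 236 and 181 CPM in the knockdown libraries, so that the control libraries held both its lowest and its highest value. SLC16A3 (MCT4, the lactate exporter of glycolytic cells) stood at 206, 138 and 201 CPM and at 206, 265 and 171 CPM in the same order. Neither was separated between the groups (log2 fold change -0.26, SE 0.231, and 0.23, SE 0.188), and the ratio of SLC16A1 to SLC16A3 in FPKM ran from 0.843 to 2.65 among control libraries alone. BSG, the single-span chaperone that both need to reach the membrane, was far more abundant than either, at 340 ± 24.6 FPKM in the control and 377 ± 16.2 FPKM in the knockdown libraries (log2 fold change 0.16, SE 0.0835, adjusted p = 0.628).

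Zinc and manganese carriers numbered 15. SLC39A1 (ZIP1, a zinc importer of the plasma membrane) was the third most abundant member, at 453, 548 and 428 CPM in the control and 444, 515 and 460 CPM in the knockdown libraries. SLC39A7 (ZIP7, which releases zinc from the endoplasmic reticulum) stood at 224, 238 and 189 CPM and at 192, 237 and 180 CPM. Both overlapped between the groups, with log2 fold changes of -0.01 (SE 0.11) and -0.10 (SE 0.13), and for SLC39A1 the sign turned with upper-quartile scaling (0.0059). Both were far more abundant than the zinc exporter SLC30A1 (7.47 FPKM). The ratio of SLC39A1 to SLC30A1 was 16.0 ± 1.45 in the control and 20.4 ± 4.57 in the knockdown libraries (n = 3 each, exact two-sided permutation p = 0.3).

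Within this class 11 of 15 estimates were below 0, with a median of -0.11 (-0.0409 without control replicate 2 and -0.1857 without control replicate 3), and 2 (13.3%) lay at an unadjusted p under 0.05 beside 8.18% of tested genes. SLC39A8 (ZIP8, an importer of manganese, zinc and iron that inflammatory signals induce) stood at 35.3, 59.1 and 38.5 CPM in the control and 29.7, 30.5 and 31.6 CPM in the knockdown libraries. The knockdown libraries lay within 2 CPM of each other and below all control libraries, and control replicate 2 was again the highest. The log2 fold change was -0.53 (SE 0.185, unadjusted p = 0.0172, adjusted p = 0.599), -0.27 without control replicate 2, and its adjusted p was 0.0384 in the fit without a low-count filter. SLC39A9 (ZIP9) stood at 39.3, 46.4 and 41.2 CPM and at 34.0, 35.8 and 33.4 CPM, without overlap (log2 fold change -0.30, SE 0.11, unadjusted p = 0.0229, adjusted p = 0.605). SLC30A1 itself, the exporter that zinc induces through MTF1, stood at 50.9, 51.7 and 41.6 CPM and at 34.8, 33.4 and 47.1 CPM, where knockdown replicate 3 lay among the control libraries (log2 fold change -0.32, SE 0.156, adjusted p = 0.615).

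The SLC35 family, which brings nucleotide sugars, ATP and the sulfate donor into the Golgi and endoplasmic reticulum and has several members of unknown substrate, gave 19 members. SLC35B2, the Golgi importer of the sulfate donor PAPS, was the most abundant at 42.8 FPKM. It stood at 109, 104 and 103 CPM in the control and 106, 120 and 102 CPM in the knockdown libraries, with a log2 fold change of 0.05 (SE 0.0986, adjusted p = 0.888). SLC35B1, an ATP carrier of the endoplasmic reticulum, followed at 26.5 FPKM and stood between 48.9 and 56.4 CPM in all 6 libraries (log2 fold change 0.01, SE 0.101, adjusted p = 0.98). Replicates agreed well in this family, with a median SD of log2 CPM within groups of 0.105 beside 0.178 for all members. Estimates were below 0 for 14 of 19, with a median of -0.15 (-0.0722 over the members with a mean count of at least 600).

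SLC35A4 was an exception, at 69.2, 56.4 and 73.0 CPM in the control and 84.1, 77.6 and 81.1 CPM in the knockdown libraries, all above the control libraries (log2 fold change 0.29, SE 0.117, unadjusted p = 0.0338, adjusted p = 0.605). SLC35F5 stood at 51.0, 56.2 and 46.5 CPM beside 40.3, 43.5 and 42.9 CPM (log2 fold change -0.28, SE 0.109, unadjusted p = 0.0306, adjusted p = 0.605). SLC35G2 had the lowest estimate of the family at -0.41 (SE 0.17, unadjusted p = 0.039), but its groups overlapped at 47.6, 79.1 and 59.2 CPM beside 44, 46.9 and 49.2 CPM. Those 2 genes, like SLC1A4, SLC25A13 and SLC44A1, were named because they were among the members at an unadjusted p under 0.05, after their values were seen.

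Ion carriers of the plasma membrane were of middling abundance except for SLC4A2 (AE2, a chloride/bicarbonate exchanger) at 57.2 FPKM. It stood at 347, 368 and 336 CPM in the control and 373, 384 and 388 CPM in the knockdown libraries, which did not overlap (log2 fold change 0.12, SE 0.0795, adjusted p = 0.683). SLC4A4 (NBCe1, the sodium bicarbonate cotransporter by which the proximal tubule returns bicarbonate to the blood) was scarce at 1.93 FPKM. It stood at 18.7, 21.0 and 18.4 CPM in the control and 14.2, 13.4 and 16.8 CPM in the knockdown libraries, all below the control libraries (log2 fold change -0.39, SE 0.142, unadjusted p = 0.023, adjusted p = 0.605).

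Of 9 carriers of inorganic cations and chloride, 7 estimates were above 0, with a median of 0.19. SLC12A5 (KCC2, a potassium chloride cotransporter known from neurons) gave the highest estimate of any member from among the lowest levels, at 11.3, 5.75 and 7.61 CPM in the control and 12.7, 9.84 and 13.1 CPM in the knockdown libraries. Control replicate 1 lay among the knockdown libraries (log2 fold change 0.54, SE 0.248, adjusted p = 0.615), and the estimate was 0.83 without it. The potassium chloride cotransporter SLC12A4, chosen after its values were seen, had the closest replicates, with 31.4 CPM in each control library and 35.7 to 35.8 CPM in the knockdown libraries (log2 fold change 0.19, SE 0.0996, adjusted p = 0.633).

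SLC6A8, the creatine carrier and the leading member among osmolyte, creatine and amine carriers at 72.6 FPKM, stood at 302, 275 and 280 CPM in the control and 316, 312 and 314 CPM in the knockdown libraries. These did not overlap, and the log2 fold change was 0.13 (SE 0.0812, adjusted p = 0.66). SLC6A6, the taurine carrier, stood at 6.09 FPKM with overlap (log2 fold change -0.09, SE 0.147, adjusted p = 0.88). SLC52A2, a riboflavin carrier and the leading vitamin carrier at 30.0 FPKM, stood at 63.0, 65.0 and 69.2 CPM beside 78.4, 71.0 and 76.6 CPM, again without overlap (log2 fold change 0.20, SE 0.0962, unadjusted p = 0.0701, adjusted p = 0.615). SLC44A1, a choline carrier, stood at 59.8, 72.7 and 55.9 CPM beside 49.4, 50.4 and 53.3 CPM, without overlap (log2 fold change -0.30, SE 0.12, unadjusted p = 0.0343). SLC10A3, an orphan of the bile acid carrier family, led the lipid class at 19.5 FPKM with overlap (log2 fold change 0.13, SE 0.144, adjusted p = 0.812).

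**Figure D4:**
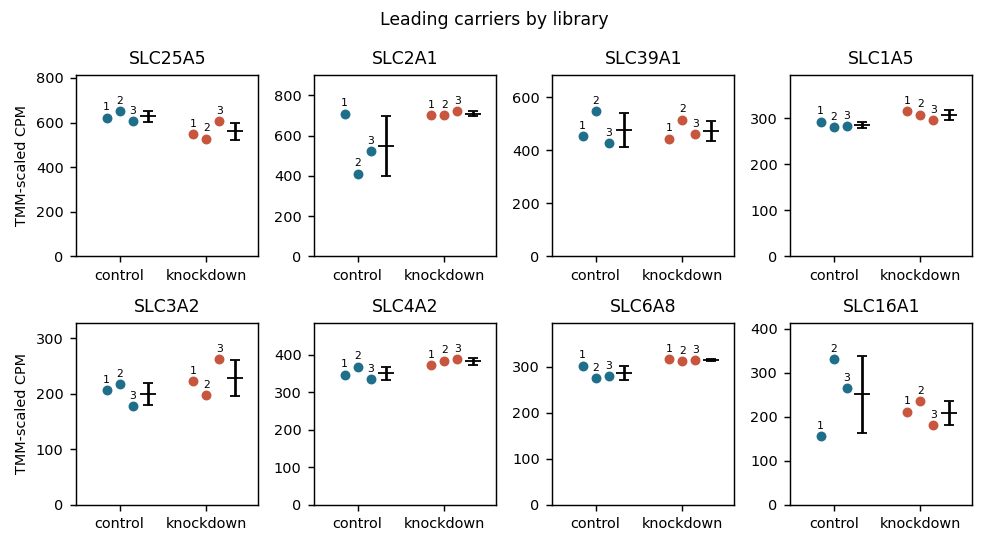
TMM-scaled CPM in each library, numbered by replicate, for 8 abundant carriers, with the mean and SD of 3 libraries beside each group (linear axes from 0). SLC6A8 and SLC4A2 sit higher in all 3 libraries labelled knockdown, SLC25A5 sits lower, and SLC39A1, SLC3A2 and SLC16A1 overlap.

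For the sodium-dependent phosphate carriers of general use, SLC20A1 (PiT-1) stood at 99.3, 167 and 103 CPM in the control and 99.3, 101 and 100 CPM in the knockdown libraries, which differed from each other and from 2 control libraries by little, control replicate 2 being high. The ratio of SLC20A1 to SLC20A2 (PiT-2) in FPKM was 7.46, 10.7 and 8.87 in the control and 7.26, 7.07 and 6.45 in the knockdown libraries, without overlap (exact two-sided permutation p = 0.1, the smallest possible). The nucleoside carrier SLC29A1 stood between 74.2 and 92.9 CPM in all libraries (log2 fold change 0.08, SE 0.107, adjusted p = 0.851).

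Among 6 carriers of organic ions, drugs, hormones and peptides estimates ran from 0.02 to 0.33, with a median of 0.07. Omitting 1 library put that median between -0.0188 (control replicate 1 omitted) and 0.2091 (control replicate 3 omitted). SLC15A4, a lysosomal carrier of peptides and histidine, led at 13.5 FPKM and stood at 31.2, 34.4 and 41.3 CPM in the control and 44.7, 45.7 and 41.6 CPM in the knockdown libraries. The groups were separate, though control replicate 3 and knockdown replicate 3 nearly met (log2 fold change 0.30, SE 0.127, unadjusted p = 0.0408, adjusted p = 0.605). SLC22A18, an orphan of the organic ion family, stood at 11.2, 9.02 and 9.05 CPM beside 11.8, 12.6 and 12.2 CPM (log2 fold change 0.33, SE 0.155, adjusted p = 0.615).

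The widest spread between replicates was seen in 3 members that followed 1 pattern over the libraries. SLC11A2 (DMT1, a proton-coupled importer of ferrous iron) stood at 32.4, 74.1 and 73.6 CPM in control replicates 1, 2 and 3 and at 66.1, 84.0 and 34.4 CPM in knockdown replicates 1, 2 and 3. SLC43A3 stood at 173, 338 and 381 CPM and at 379, 465 and 207 CPM, and SLC25A37 (mitoferrin-1, which brings iron into mitochondria) at 38.9, 77.9 and 81.9 CPM and at 84.3, 98.7 and 44.6 CPM. In all 3 genes control replicate 1 and knockdown replicate 3 were low and the other 4 libraries were high. SLC48A1 (HRG1, a heme carrier of endosomes and lysosomes) ran the other way, at 97.9, 38.9 and 51.1 CPM and at 64.3, 53.3 and 103 CPM. Because a low library fell in each group, the fold changes were imprecise (SE 0.356, 0.324, 0.321 and 0.338 for SLC11A2, SLC43A3, SLC25A37 and SLC48A1), and their signs turned when 1 library was left out.

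Those 2 libraries also had the lowest totals, of 24231267 reads (control replicate 1) and 28866835 reads (knockdown replicate 3), and the part of depth or of any other library property in this pattern was not tested. Of the 10 most variable members, SLC39A14, SLC9A7, SLC22A5 and SLC16A1 were also below their mean in these 2 libraries, while SLC44A3 was low and SLC38A2 high in control replicate 2. Control replicate 2 held the highest CPM of 44 members (31.2%) beside 25.7% of tested genes, and the lowest of 33 members (23.4%) beside 25.5%.

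**Figure D5:**
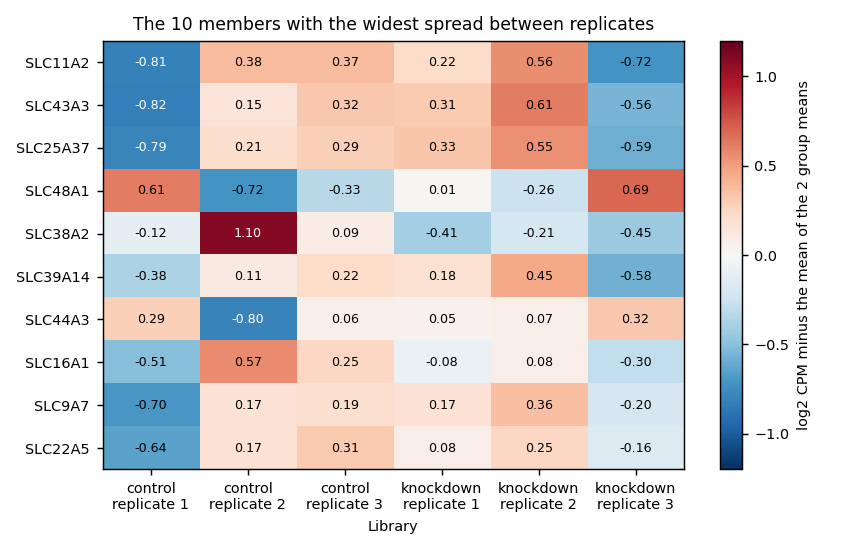
Each library's log2 CPM minus the mean of both group means, for the 10 members with the widest spread between replicates of a group. SLC11A2, SLC43A3 and SLC25A37 are blue (low, -0.56 to -0.82) in control replicate 1 and knockdown replicate 3 and red elsewhere, SLC48A1 is the reverse in these 2 libraries, and SLC38A2 is highest in control replicate 2 (1.10).

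Carriers were also read by the regulators they are known for, from lists written from general knowledge. Of 9 genes listed as responding to amino acid shortage through ATF4, 8 had reads and 6 were members. At an unadjusted p under 0.05, 2 (25.0%) lay lower, SLC38A2 and SLC1A4 (background 4.32% lower, 8.18% in either direction), with 0 past the adjusted threshold. The median log2 fold change over the 8 was -0.22. Control replicate 2 was the highest of the 6 libraries for all 5 genes with estimates below 0. For SLC38A2, SLC1A4 and SLC7A11 the values above show it. SLC7A1 stood at 140 CPM there and at most at 122 CPM elsewhere, and SLC6A9 at 4.8 and at most 2.63 CPM. It was not the highest for the 3 genes above 0, SLC3A2, SLC7A5 and SLC1A5. The part of that 1 library in the median was not tested. The 3 hypoxia-responsive carriers SLC2A1, SLC2A3 and SLC16A3 had estimates of 0.37, 0.10 and 0.23, none at an unadjusted p under 0.05. Of 4 carriers known from inflammatory signalling, 2 (50%) lay lower at an unadjusted p under 0.05 (background 4.32% lower, 8.18% in either direction). Neither of these 2 passed the adjusted threshold. They were SLC39A8 (adjusted p = 0.599), whose estimate shrank without control replicate 2 as given above, and SLC7A2 (adjusted p = 0.608), which had 0.158 FPKM and was no member. SLC2A6 and SLC11A2 overlapped. SLC39A10, the other zinc-responsive gene listed beside SLC30A1, had a log2 fold change of 0.17 (SE 0.176, adjusted p = 0.796).

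Of 5 carriers catalogued as interferon-stimulated, the members SLC16A1, SLC25A28 (mitoferrin-2) and SLC25A30 overlapped, with SLC25A28 at 21.6, 25.0 and 22.9 CPM beside 26.3, 24.6 and 27.5 CPM (log2 fold change 0.18, SE 0.118, adjusted p = 0.689). The estimates of SLC16A1 and SLC25A30 were -0.26 and -0.23, and that of SLC1A1, a glutamate carrier below the limit for members, was -0.60 (SE 0.391), so that 3 of the 5 lay below 0, with a median of -0.23. SLC15A3, a lysosomal peptide carrier far below the limit for members with 75 reads in all, had 8, 1 and 3 reads in the control and 16, 15 and 32 reads in the knockdown libraries (log2 fold change 2.20, SE 0.816, unadjusted p = 0.024, adjusted p = 0.605). Of 4 genes induced by hypertonicity, 3 had estimates below 0: the members SLC6A6 and SLC38A2, given above, and SLC5A3, a myo-inositol carrier below the limit (-0.17, SE 0.298). SLC6A12, a betaine carrier also below the limit, stood at 4.84, 3.15 and 4.17 CPM beside 7.79, 8.12 and 4.26 CPM, with knockdown replicate 3 among the control libraries (log2 fold change 0.74, SE 0.288, unadjusted p = 0.0303, adjusted p = 0.605).

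The carriers known for reabsorption and secretion in the proximal tubule had few reads. SLC34A1 (NaPi-IIa, the brush-border phosphate cotransporter) had 22, 5 and 12 reads in the control and 11, 15 and 16 reads in the knockdown libraries, 81 in all. SLC5A2 (SGLT2, the glucose cotransporter of the early proximal tubule) had 12, 10 and 14 reads and 8, 27 and 10 reads, also 81 in all. At these depths no difference between the groups was detected, and the estimates were imprecise (SE 0.685 and 0.621 on the log2 scale, adjusted p = 0.977 and 0.95). The 95% intervals ran from -1.63 to 1.46 for SLC34A1 and from -1.23 to 1.57 for SLC5A2. SLC5A1, SLC22A6 and SLC22A8 were not analysed here. Of 25 proximal tubule carriers listed, 18 had reads and the other 7, these 3 among them, were not analysed here; 9 were tested and 2 were members, the bicarbonate cotransporter SLC4A4 and the basolateral amino acid exchanger SLC7A7 (8.08, 10.4 and 11.4 CPM beside 11.4, 13.6 and 10.1 CPM). Next came the urate and phosphate carriers SLC17A3 and SLC17A1 with 652 and 201 reads in all, whereas SLC9A3, SLC6A19, SLC47A1 and SLC7A9 had 1, 1, 2 and 3 reads over the 6 libraries. Of 8 carriers of later nephron segments 7 had reads, and SLC8A1 had the most, 233 in all.

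Among the 5 members that are not carriers, SLC2A4RG, a DNA-binding protein named for the GLUT4 gene, was the most abundant at 100 FPKM. It stood at 189, 138 and 183 CPM in the control and 197, 190 and 206 CPM in the knockdown libraries, without overlap (log2 fold change 0.22, SE 0.125, adjusted p = 0.647). SLC9A3R1 (NHERF1), the scaffold that holds NHE3 and NaPi-IIa at the brush border, stood at 32.4 FPKM, while SLC9A3, the gene of NHE3, had 1 read in all. Its CPM was 82.6, 60.6 and 65.9 in the control and 66.8, 55.2 and 76.3 in the knockdown libraries, which overlapped (log2 fold change -0.08, SE 0.153).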

How the data were processed

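Raw read counts per gene, not normalised, were deposited by the authors for 26899 genes, and FPKM values deposited by the authors covered 26803 genes. The submitters' processing notes name bcl2fastq, TopHat2, edgeR and the build GRCh38, without versions. Nothing in the sources used here names the counting program, the annotation release or the treatment of strand, so reads of overlapping or antisense genes cannot be told apart. All 6 columns of both tables were used.

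The paper supplied for style does not describe this experiment, and no method was taken from it. Counts were fitted with edgeR 4.0.16 in R 4.3.3 (quasi-likelihood test, TMM factors 0.9868 to 1.0211, default low-count filter with a minimum count of 10 and a total of 15), with 3 control and 3 knockdown libraries, no covariates, two-sided tests and Benjamini-Hochberg adjustment over all 15299 tested genes. Intervals are 95%. Levels were compared between genes as FPKM and between libraries as TMM-scaled CPM. Ratios and single values were tested by exact permutation of the group labels, two-sided, for which 0.1 is the smallest p. On simulated counts for 15299 genes, the edgeR step called 147 of 200 changed genes and 9 unchanged genes. Every changed gene was set to differ by 2-fold or more. How often it calls differences as small as those of the members (-0.81 to 0.54 on the log2 scale) was not tested. The chi-square per degree of freedom between replicates of a group was 9.64 to 49.7, so no library was a copy of another in its group. Libraries of different groups were not compared in this way. Depth was 24231267 to 34561675 reads per library, and the SE of members ran from 0.0795 to 0.356 on the log2 scale.

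The members, substrate classes, lists and tests were chosen with earlier results of these data known. Classes and lists came from general knowledge, and SLC4A1AP, SLC2A4RG and SLC7A6OS were set apart as non-carriers after the members were known. Genes were named by this rule: the context carriers and ANXA2; the member with the highest mean FPKM of each class with 3 or more members and the next highest in classes of 10 or more; the 6 smallest unadjusted p-values in each direction; the 3 widest spreads between replicates; the 2 most abundant genes of each list; partner pairs; and the ADP/ATP carriers. Some genes that the rule names are not reported here. Any other gene named was chosen after its values were seen. Coordinates are those of GENCODE release 44 on GRCh38, in which all 141 members were matched. Alternatives were RLE, upper-quartile and library-size scaling, no filter, DESeq2 1.42.0, limma 3.58.1 (voom on counts, trend on log2 FPKM with 0.1 or 1 added), a replicate block, each library left out, and mean-count limits of 150 and 600. Figures were drawn with matplotlib 3.10.9.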

Additional observations from a re-analysis of the deposited data

How the results depend on the processing

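The count of members past adjusted p 0.05 was 0 under every alternative except edgeR without its low-count filter, which called 2 members (SLC38A2, adjusted p = 1.89e-07, and SLC39A8, adjusted p = 0.0384) and 165 genes in all, the cause of which was not tested. Over all tested genes DESeq2 called 32, and the fits that left out 1 library called 0 to 4. Members at an unadjusted p under 0.05 numbered 14 in the main fit, beside 1251 of all tested genes. Without the filter they numbered 23, beside 2078 of all genes in that fit. With a library left out they ran from 1 (without knockdown replicate 1, beside 505 of all genes) to 26 (without control replicate 1, beside 1947). Without control replicate 2 they numbered 5, beside 739 of all genes. The median log2 fold change of the members was -0.0367 at its lowest, without control replicate 1, and 0.0197 at its highest, without control replicate 2, beside -0.0047 with all libraries. Of 204 class medians under the alternatives 194 moved by less than the spread between replicates and 10 moved by more.

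Libraries of the same number did not stand out by their deviations from the group mean (correlations -0.062, 0.118 and -0.203). Pairs of different numbers ran from -0.226 (control replicate 1 with knockdown replicate 2) to 0.217 (control replicate 1 with knockdown replicate 3). These values cannot settle whether the numbers mark a shared culture or day, since deviations within 3 libraries depend on each other. With a replicate block 0 genes and 0 members were called, with 13 members at an unadjusted p under 0.05 beside 1076 of all tested genes.

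Of 645 estimates for 43 named genes under 15 alternatives, 613 kept their sign and side of the threshold, 2 (SLC38A2 and SLC39A8, above) passed it and 30 turned sign. SLC34A1 turned to 0.2458 with voom, 0.1369 with the replicate block and 0.0074 on log2(FPKM + 0.1). SLC35B1 turned to -0.0116 with library size only, -0.0053 on log2(FPKM + 0.1) and -0.0051 on log2(FPKM + 1), and SLC39A1 to 0.0059 with upper-quartile scaling. With a library left out, estimates ran from -0.0057 to 0.24 for SLC10A3, -0.2602 to 0.3215 for SLC11A2, -0.0064 to 0.1309 for SLC25A3, -0.0716 to 0.4655 for SLC25A37, -0.5222 to 0.7133 for SLC34A1, -0.0454 to 0.0594 for SLC35B1, -0.0161 to 0.1035 for SLC35B2, -0.0808 to 0.104 for SLC39A1, -0.0367 to 0.505 for SLC43A3, -0.0863 to 0.7105 for SLC48A1, -0.5083 to 0.4946 for SLC5A2, -0.195 to 0.0548 for SLC6A6 and -0.0825 to 0.1807 for SLC7A5.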

Other observations

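Carriers whose symbols do not begin with SLC were outside the members. Of 20 such genes listed from general knowledge, 19 had reads and 18 were tested, and 0 passed an adjusted p of 0.05 with edgeR (4, or 22.2%, at an unadjusted p under 0.05 beside 8.18% of tested genes, 2 in each direction beside 3.86% higher and 4.32% lower). The median log2 fold change was 0.14 and 13 estimates were above 0. MTCH1, a mitochondrial outer membrane protein of the carrier family, was as abundant as SLC2A1, at 165 FPKM. UCP2, a mitochondrial carrier of the same family, stood at 224, 162 and 202 CPM in the control and 243, 230 and 276 CPM in the knockdown libraries, without overlap (log2 fold change 0.35, SE 0.13, unadjusted p = 0.0243, adjusted p = 0.605). SPNS1, a lysosomal lysophospholipid carrier, stood at 91.0, 112 and 106 CPM beside 134, 136 and 129 CPM, also without overlap (log2 fold change 0.37, SE 0.104, unadjusted p = 0.00607, adjusted p = 0.599). FLVCR1, a choline and heme carrier, stood at 23.0, 22.3 and 24.1 CPM beside 16.0, 19.0 and 17.9 CPM (log2 fold change -0.39, SE 0.124, adjusted p = 0.599), and XPR1, the phosphate exporter, at 61.5, 61.4 and 57.8 CPM beside 47.4, 53.5 and 50 CPM (log2 fold change -0.26, SE 0.099, adjusted p = 0.605).

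SLCO2A1, the prostaglandin carrier, stood at 199, 420 and 379 CPM in control replicates 1, 2 and 3 and at 322, 380 and 177 CPM in knockdown replicates 1, 2 and 3. SLCO4A1 stood at 58.2, 109 and 129 CPM and at 133, 155 and 74.8 CPM. Both were low in control replicate 1 and knockdown replicate 3, as SLC11A2, SLC43A3 and SLC25A37 were.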
